A study of Mus musculus with 16 samples.

Results

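The genes described here write, read and act on cytosine methylation. They are the DNA methyltransferases Dnmt1 and Dnmt3a with their catalytically inactive relative Dnmt3l, the readers Uhrf1, Uhrf2, Mbd1, Mbd2 and Mbd3, and the repressors Trim28 and Ehmt2, which work with them. They were chosen by name, as every probe whose only gene symbol was one of the 10, which gave 16 probes of the 20355 on the array and 10 of the 9930 genes with such a probe. RNA of NIH3T3 cells, an established mouse fibroblast line, was measured on 16 cDNA arrays read in 2 dyes. On each array azacytidine-treated cells were set against the same line left untreated. Cells transfected with Erbb2, a receptor tyrosine kinase gene, were treated at 10 µM (8 arrays) and at 5 µM (4 arrays), and untransfected NIH3T3 cells at 10 µM (4 arrays). The sources used here do not give the length of treatment, the Erbb2 construct or whether the transfected line was 1 clone. No probe carried the symbol Erbb2, and a ratio shows no level, so neither the transfection nor the cell type could be checked from the values.

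DNA methylation is laid down mainly on cytosines followed by guanine, in the pair called CG. Dnmt1 copies the pattern to the new strand after replication, guided by Uhrf1, which binds CG sites methylated on 1 strand, while Dnmt3a methylates new sites. Proteins of the MBD family bind methylated CG through a shared domain, or sit in a repressor complex, and bring histone deacetylases. Azacytidine is a cytosine analogue, and the part of it that enters DNA traps methyltransferases on the strand, so that the enzyme protein is lost while its messenger RNA need not change. The arrays measured the messenger RNA.

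Every value is a log2 ratio, treated over untreated, so that a positive one means more signal in treated cells, and ± gives limma's standard error. A gene passed where its p, adjusted by Benjamini-Hochberg over 12420 features, was under 0.05. Which dye was the numerator is not stated. The deposited ratios were read as Cy5 over Cy3 and turned where the treated RNA was in Cy3. Each direction rests on that reading and is called the likely one. With Cy3 as the numerator all signs would turn in every group, which was not tested. On the arrays of untransfected cells both channels carry the same dye label, and if the label of channel 1 is wrong there, all signs of that group turn. Arrays 1 to 4 of Erbb2 cells at 10 µM, and arrays 1 and 2 of the other groups, had the treated RNA in Cy5. Of the features with a value on every array, the share with one sign throughout after turning was 3.90% for Erbb2 cells treated at 10 µM, 17.6% for those at 5 µM and 25.3% for untransfected cells, against 1.99%, 15.4% and 10.8% as deposited. These shares bear on whether arrays of opposite dye should be turned against each other, not on which dye was the numerator. At 5 µM the 2 shares lie close together, so they say little there. An array gave 16153 to 18507 ratios, whose interquartile range was 0.71 to 1.36, and the widest were arrays 6, 3 and 5 of Erbb2 cells at 10 µM. The labels do not say whether arrays came from separate cultures, so p-values measure the spread between arrays, which may be technical. In bulk RNA, fewer cells that express a gene and less RNA per cell cannot be told apart.

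Of the 10 genes, 1 passed in any of the 3 treated groups, and it was Mbd2, lower in untransfected cells. The count was 0 of 10 in Erbb2 cells at 10 µM, where 1.26% of all features passed, 0 of 10 at 5 µM, where 0.209% passed, and 1 of 10 in untransfected cells, where 2.73% passed. With 10 genes these shares allow less than 1 call in each group, so the counts lie near the background. At an unadjusted p under 0.05 the genes numbered 1, 1 and 3 of 10 in that order of groups, where 10.8%, 6.33% and 11.5% of all features had one. The median of the 10 fitted values was -0.08 at either dose in Erbb2 cells and -0.29 in untransfected cells, beside -0.00, -0.02 and 0.03 over all features. Of the 10 values, Erbb2 cells had 7 below 0 at 10 µM and 5 at 5 µM, and untransfected cells had 8. If the arrays of untransfected cells were labelled in the other dye, or the deposited values were treated over untreated already, 2 of the 10 lay below 0 in that group.

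**Figure D1:**
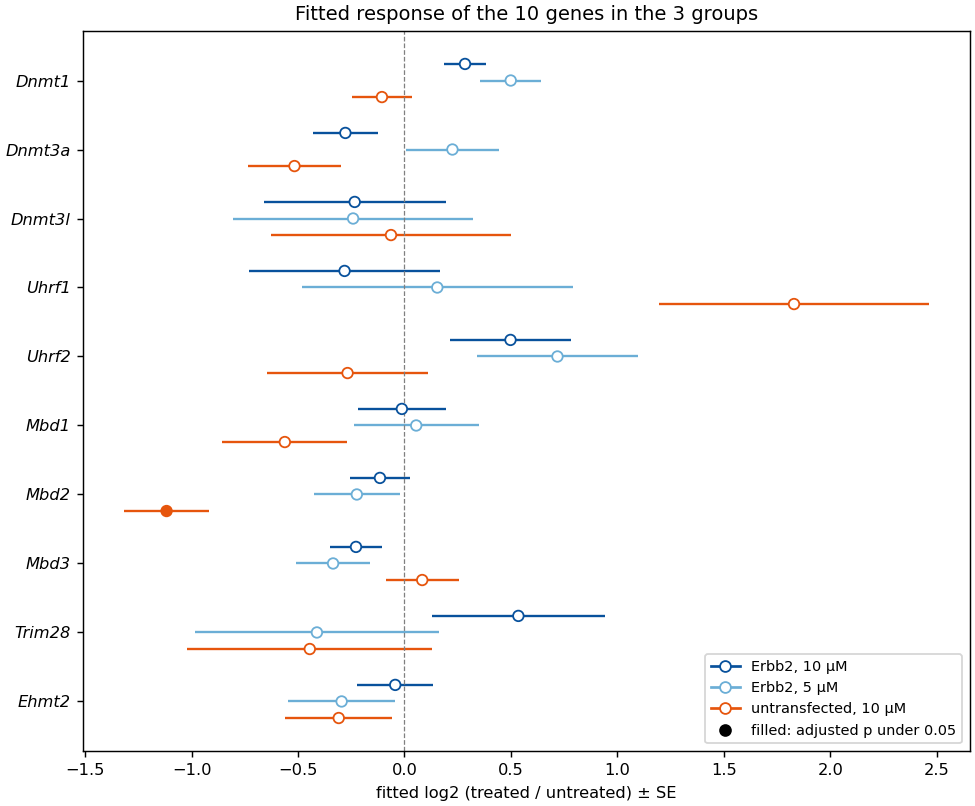
Fitted log2 ratio of treated over untreated cells (x axis) for each of the 10 genes (y axis) in Erbb2 cells at 10 µM (8 arrays) and 5 µM (4 arrays) and in untransfected cells at 10 µM (4 arrays). Points are limma values, bars are ± 1 standard error and filled points passed an adjusted p under 0.05, which was the case for Mbd2 in untransfected cells at -1.12.

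Dnmt1 (Entrez Gene 13433), the maintenance methyltransferase, had 1 probe with a value on all 16 arrays. In RefSeq it lies on the minus strand of chromosome 9 (build GRCm38.p6) with 3 annotated starts. Their promoter windows, 250 bases before to 50 after the start, held 33, 12 and 2 CG pairs. Of 32851 such windows in the same table, with a median of 7, 8.56% held at least 33, 39.6% at least 12 and 85.9% at least 2. The windows with the most and the fewest CG are printed because CG is the pair that Dnmt1 methylates and azacytidine acts on, with each CG in capitals. Methylation was not measured, the position of the probe is not given, and the ratio of a gene cannot be assigned to a start.
Dnmt1 chr9:20952574-20952873, minus strand: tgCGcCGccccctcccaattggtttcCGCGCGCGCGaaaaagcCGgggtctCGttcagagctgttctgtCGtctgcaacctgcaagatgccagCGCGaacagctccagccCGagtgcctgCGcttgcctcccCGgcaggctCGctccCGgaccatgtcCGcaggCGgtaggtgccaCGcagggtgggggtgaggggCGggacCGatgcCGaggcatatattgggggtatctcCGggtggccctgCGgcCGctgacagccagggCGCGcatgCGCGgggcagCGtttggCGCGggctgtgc
Dnmt1 chr9:20959839-20960138, minus strand: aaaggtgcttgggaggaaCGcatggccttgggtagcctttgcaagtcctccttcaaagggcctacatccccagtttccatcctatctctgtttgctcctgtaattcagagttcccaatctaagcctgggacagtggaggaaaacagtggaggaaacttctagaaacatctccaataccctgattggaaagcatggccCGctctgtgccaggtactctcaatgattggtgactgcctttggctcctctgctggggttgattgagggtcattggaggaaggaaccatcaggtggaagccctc
The first window is rich in CG along its length, and the second, farther upstream of the gene body, holds 2.

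In Erbb2 cells at 10 µM the 8 Dnmt1 ratios ran from -0.01 to 0.79 with a median of 0.17. At 5 µM they were 0.52, 0.32, 0.61 and 0.55, and in untransfected cells -0.105, -0.098, -0.110 and -0.110. Of the 12 arrays of Erbb2 cells 11 lay above 0, and all 12 lay above the 4 of untransfected cells. The share of all features that separate in this way was not counted. The separation of Dnmt1 holds only in the likely direction, since with the signs of untransfected cells turned their ratios lie at 0.098 to 0.110, above arrays 2 and 3 of Erbb2 cells at 10 µM. The fitted values were 0.28 ± 0.10 at 10 µM, or 1.22-fold (adjusted p 0.295 from limma), 0.50 ± 0.14 at 5 µM, or 1.41-fold (adjusted p 0.307), and -0.11 ± 0.14 in untransfected cells (adjusted p 0.969), so Dnmt1 passed in no group. Within Erbb2 cells at 10 µM the mean was 0.09 with the treated RNA in Cy5 and 0.48 with it in Cy3. At 5 µM the means were 0.42 in Cy5 and 0.58 in Cy3, and the dye term had an adjusted p of 0.674 from limma.

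The 4 Dnmt1 ratios of untransfected cells had an SD of 0.00568, and 0% of the features had a smaller one in that group. With the sign of the deposited values they were -0.105 and -0.098 on the Cy5 arrays, and 0.11 and 0.11 on the Cy3 arrays, so they changed sign with the dye. The Dnmt1 ratios of Erbb2 cells also had opposite signs by dye in the deposited values, except on array 3 at 10 µM. For comparison, Mbd2 in untransfected cells had -1.216 and -1.267 on the Cy5 arrays, and 1.025 and 0.962 on the Cy3 arrays.

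**Figure D2:**
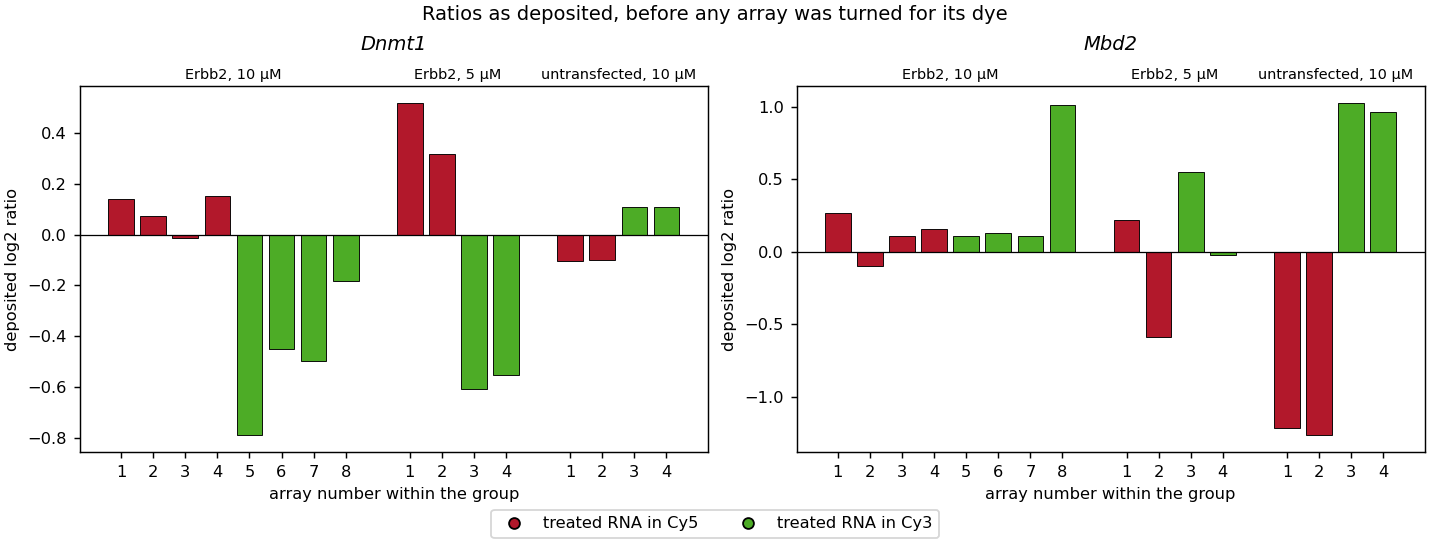
Deposited log2 ratio (y axis) of Dnmt1 and Mbd2 on each array (x axis), before any array was turned, with bars coloured by the dye of the treated RNA and starting at 0. In untransfected cells the bars of both genes point down with treated RNA in Cy5 and up with it in Cy3, at about 0.11 for Dnmt1 and 0.96 to 1.27 for Mbd2.

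Dnmt3a (13435), the de novo methyltransferase, had 5 probes, of which 4 were measured often enough to be tested and were averaged. In Erbb2 cells at 10 µM the averages ran from -1.15 to 0.42 with a median of -0.19. At 5 µM they were 0.12, 0.58, -0.11 and 0.31, and in untransfected cells -0.19, -0.43, -0.32 and -1.13. All 4 averages of untransfected cells were below 0, but they overlapped with those of Erbb2 cells at 10 µM. Single values of the tested probes lay above 0 there, at 0.449, 0.695 and 0.726 on arrays 3, 2 and 1, and the others lay below. The fitted values were -0.28 ± 0.15, 0.23 ± 0.22 and -0.52 ± 0.22 in that order of groups, with an adjusted p of 0.350 from limma for the last. The 4 probes gave -0.04, -0.28, -0.31 and -0.39 at 10 µM and -0.29, -0.40, -0.70 and -0.67 in untransfected cells, the same sign each. At 5 µM they gave -0.04, 0.39, 0.31 and 0.37, with 1 probe apart from the other 3. The untested probe had 5 ratios. They were 4.46 and 1.15 at 10 µM and -4.74 at 5 µM in Erbb2 cells, and 1.81 and -1.49 in untransfected cells, so they scatter on both sides of 0.

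Dnmt3l (54427), which stimulates Dnmt3a and is known for its part in germ cells, had no shift larger than its spread. The 7 ratios in Erbb2 cells at 10 µM ran from -1.97 to 2.48 with a median of -0.30. They were 0.52, -0.50, -0.50 and -0.49 at 5 µM, and 0.03, 1.44, -0.47 and -1.25 in untransfected cells. The fitted values were -0.23 ± 0.43, -0.24 ± 0.56 and -0.06 ± 0.56, and the 95% interval at 10 µM reached from -1.16 to 0.69.

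**Figure D3:**
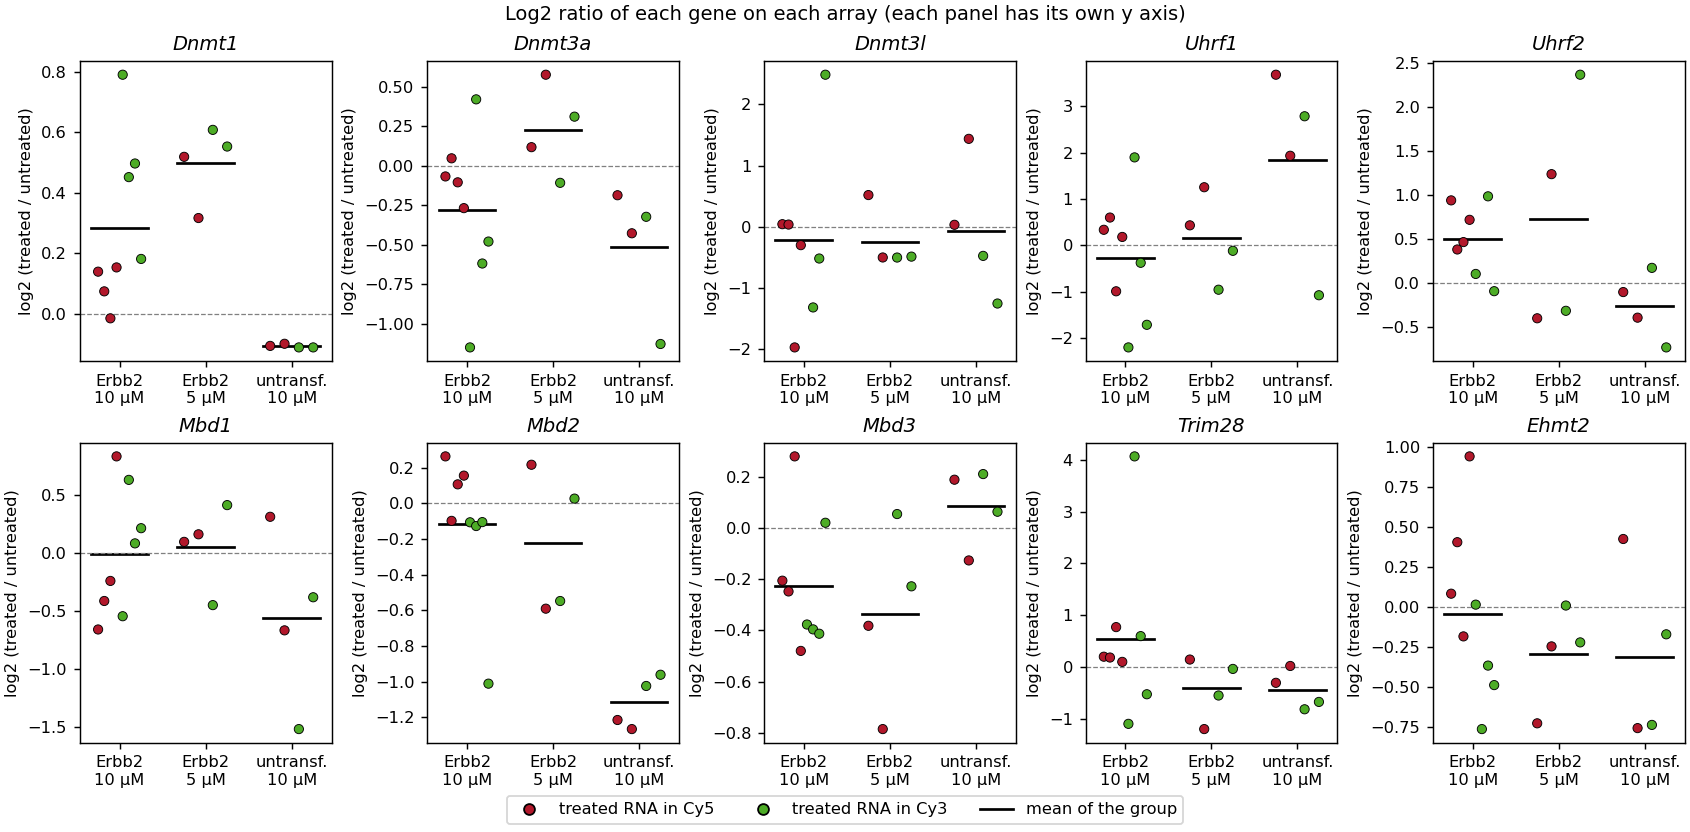
Log2 ratio of treated over untreated cells (y axis, its own scale in each panel) of each of the 10 genes on each array, by group (x axis), as treated over untreated in the likely direction. Points are arrays, coloured by the dye of the treated RNA, and lines are group means. In untransfected cells Mbd2 lies at -1.27 to -0.96, a range that also holds array 8 of Erbb2 cells at 10 µM at -1.01, and Dnmt1 lies at -0.11 to -0.10.

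Uhrf1 (18140), the adaptor that brings Dnmt1 to sites methylated on 1 strand, had widely spread ratios. In Erbb2 cells at 10 µM the ratios ran from -2.20 to 1.90 with a median of -0.10. At 5 µM they were 0.43, 1.25, -0.95 and -0.12, and in untransfected cells 3.68, 1.93, 2.78 and -1.07. In untransfected cells 3 arrays were high and the array numbered 4 was below 0, so the SD there was 2.06, larger than the mean of 1.83. The fitted value was -0.28 ± 0.45 (10 µM) and 0.15 ± 0.64 (5 µM) in Erbb2 cells, against 1.83 ± 0.64 in untransfected cells (3.56-fold, adjusted p 0.209 from limma). With the dyes of that group read the other way round its value there was -1.83. Without array 4 of untransfected cells Uhrf1 passed there, at 2.68 (adjusted p 0.0467). Of the 16 ratios of its probe, 3 equalled a ratio of 2 whole numbers up to 10 (within 0.0011 on the log2 scale), against 0 of 16 for Mbd2 and 2 of 16 for Dnmt1. Over all probes 8.29% of the ratios did so. The counts rest on the value taken for a ratio of 1, which is less sure on the arrays of untransfected cells.

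Uhrf2 (109113), a relative of Uhrf1 that does not replace it in maintenance methylation, had ratios from -0.10 to 0.98 with a median of 0.46 in Erbb2 cells at 10 µM (7 arrays). They were -0.40, 1.23, -0.32 and 2.36 at 5 µM, and -0.11, -0.40, 0.17 and -0.74 in untransfected cells. The fitted values were 0.50 ± 0.29, 0.72 ± 0.38 and -0.27 ± 0.38, and none passed, with the smallest adjusted p from limma, 0.565, at 10 µM. Without array 4 at 5 µM the value there was 0.12, and without array 4 of untransfected cells it was -0.09 in that group.

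Mbd2 (17191), which binds methylated CG and brings the NuRD deacetylase complex to it, fell in untransfected cells. The ratios in Erbb2 cells at 10 µM ran from -1.01 to 0.26 with a median of -0.10. At 5 µM they were 0.22, -0.59, -0.55 and 0.03, and in untransfected cells -1.22, -1.27, -1.03 and -0.96. The 4 arrays of untransfected cells lay below every array of Erbb2 cells but 1, array 8 at 10 µM, at -1.01, which lay between them. In Erbb2 cells the fitted values were -0.12 ± 0.14 at 10 µM (adjusted p 0.826 from limma) and -0.22 ± 0.20 at 5 µM (adjusted p 0.9999). In untransfected cells the fall was 1.12 ± 0.20 on the log2 scale, or 0.461-fold (95% interval -1.55 to -0.69, adjusted p 0.00573). The call in untransfected cells rests on the spread shared by all 16 arrays. Fitted on the 4 arrays of untransfected cells alone, the value was the same with a standard error of 0.14, but its adjusted p was 0.211. With the deposited signs left unturned the value was -0.12. With the dyes of the untransfected arrays read the other way round it was 1.12, a rise, with the same adjusted p of 0.00573 from limma.

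Mbd1 (17190), which also binds methylated CG, gave -0.01 ± 0.21 (10 µM) and 0.06 ± 0.29 (5 µM) in Erbb2 cells, and -0.56 ± 0.29 in untransfected cells (adjusted p 0.525 from limma). Without array 3 of untransfected cells that value was -0.24, and without array 1 it was -0.86. Its ratios were averages of 2 probes, except on array 3 of untransfected cells, where only 1 probe had a value. They ran from -0.66 to 0.83 at 10 µM with a median of -0.08. They were 0.10, 0.16, -0.45 and 0.41 at 5 µM and 0.31, -0.67, -1.51 and -0.38 in untransfected cells. The 2 probes gave -0.45 and -0.42 in untransfected cells, each fitted on its own. Mbd3 (17192), the NuRD subunit whose mammalian form binds methylated CG weakly, ran from -0.48 to 0.28 at 10 µM with a median of -0.31. It had -0.38, -0.79, 0.05 and -0.23 at 5 µM and 0.19, -0.13, 0.21 and 0.06 in untransfected cells. Mbd3 gave -0.23 ± 0.12, -0.34 ± 0.17 and 0.08 ± 0.17 in that order of groups, and did not pass in any, with adjusted p of 0.527, 0.872 and 0.998 from limma.

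Trim28 (21849), the KAP1 corepressor that zinc-finger proteins bring to retroviral and imprinted sequences, had ratios from -1.10 to 4.06 with a median of 0.19 in Erbb2 cells at 10 µM. They were 0.14, -1.20, -0.55 and -0.04 at 5 µM, and -0.31, 0.02, -0.82 and -0.68 in untransfected cells. The fitted value at 10 µM was 0.54 ± 0.41. It rested on array 6, at 4.06, one of the 3 arrays with the widest ratios, and without that array it was 0.00. At 5 µM the value was -0.41 ± 0.57 and in untransfected cells -0.44 ± 0.57. Ehmt2 (110147), the G9a methyltransferase of histone H3 lysine 9, gave -0.04 ± 0.18, -0.30 ± 0.25 and -0.31 ± 0.25 in that order of groups. The averages of its 2 probes ran from -0.76 to 0.94 at 10 µM, from -0.73 to 0.01 at 5 µM and from -0.76 to 0.43 in untransfected cells, across 0 in each. The 2 probes gave unlike values in untransfected cells, where one gave -0.01 ± 0.38 and the other -0.61 ± 0.23 (adjusted p 0.234 from limma), with -0.42, -0.51, -0.70 and -0.81 on the 4 arrays of the second. The difference between the 2 probes was not tested.

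**Figure D4:**
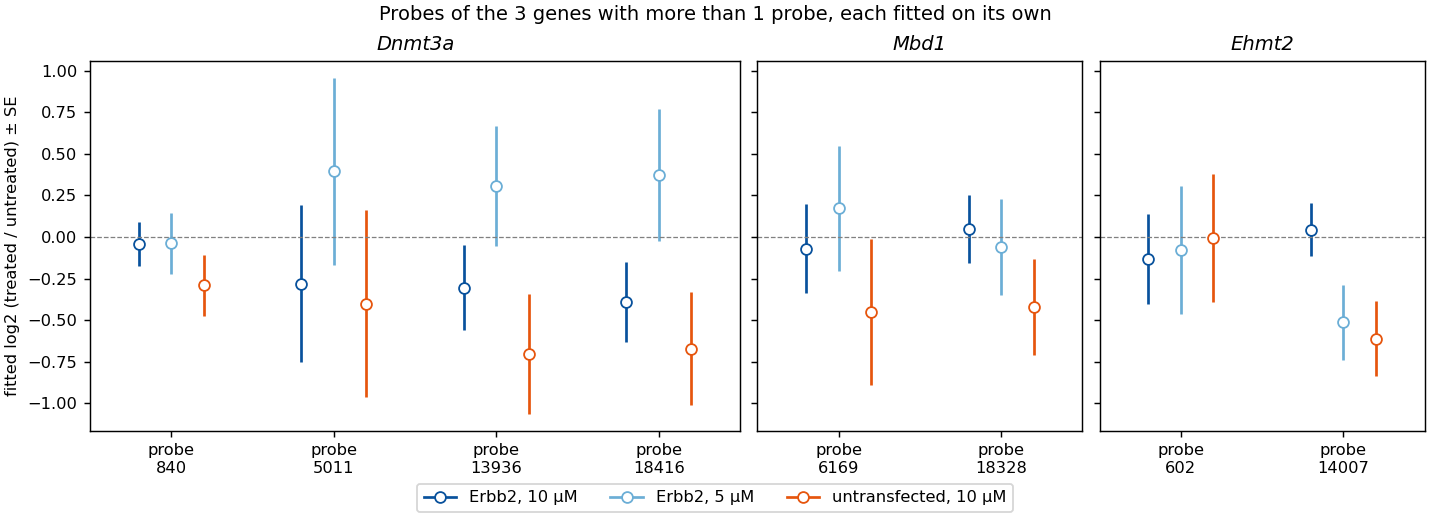
Fitted log2 ratio of treated over untreated cells (y axis) of each tested probe (x axis) of Dnmt3a, Mbd1 and Ehmt2, fitted on its own, in the 3 groups. Points are limma values and bars ± 1 standard error, and the 4 probes of Dnmt3a lie below 0 at 10 µM and in untransfected cells.

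The dose comparison asked whether 10 µM moved these genes differently from 5 µM in Erbb2 cells. In limma it passed for 0 of the 10 genes and for 0% of all features, with 538 features and 0 of the genes at an unadjusted p under 0.05. The values of 10 µM minus 5 µM were -0.21 for Dnmt1 (95% interval -0.59 to 0.16), -0.50 for Dnmt3a (-1.07 to 0.07), 0.11 for Mbd2 (-0.42 to 0.64) and 0.95 for Trim28 (-0.56 to 2.45), which was 0.41 without array 6 at 10 µM. These intervals include differences of about 1.5-fold or more for each of the 4 genes, so the design leaves such differences undetected.

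The comparison of Erbb2 with untransfected cells at 10 µM asked whether the transfected line responded differently. It passed for 0 of the 10 genes in limma, where 0.813% of all features passed. At an unadjusted p under 0.05 it held 3 of the 10 genes (Mbd2, Uhrf1 and Dnmt1) and 9.72% of all features. With the dyes of the untransfected arrays read the other way round it held 2 of the 10 (Mbd2 and Dnmt3a, the latter at -0.79) and 11.8% of all features. For Mbd2 the response of Erbb2 cells was 1.002 ± 0.25 above that of untransfected cells (interval 0.47 to 1.53, adjusted p 0.0934 from limma). Without array 8 of Erbb2 cells at 10 µM it was 1.13 and passed (adjusted p 0.0266). Uhrf1 had -2.11 ± 0.78 (adjusted p 0.333) and Dnmt1 0.39 ± 0.17 (adjusted p 0.489) in the same comparison. With those dyes read the other way round, Uhrf1 had 1.55 and Dnmt1 0.18. So with all arrays and all tested probes, and in the likely direction, the Mbd2 fall in untransfected cells is not shown to differ from the response of Erbb2 cells. Mbd2 passed in this comparison with the dyes of the untransfected arrays read the other way round, at -1.23 (adjusted p 0.0104 from limma). It also passed when only probes with all 16 values were fitted. The median of the 10 differences was 0.33, beside -0.03 over all features, and -0.22 with the dyes of the untransfected arrays read the other way round. The 3 treated groups share no array, but the comparison of doses and that of cell lines share the arrays at 10 µM. The dye of the treated RNA was a term in the fit of all 16 arrays, and it passed for 0 of the 10 genes and for 0% of all features, with 1000 features at an unadjusted p under 0.05 in limma.

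By Pearson's r over the arrays both had values on, the genes most like Dnmt1 were Zmat3 (0.851, 14 arrays), Tmem131 (0.842, 15 arrays) and Eef1b2 (0.838, 16 arrays). The genes most like Mbd2 were Cnbp (0.929), Apaf1 (0.878) and Itgb1 (0.867), each over 16 arrays. These are the highest of all genes with a single symbol, the arrays of a pair share dye and group, and so r is given as a description.

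Other genes of the pathway were described by 7 lists, of which 37 of 71 genes could be tested and 27 had no probe. In the list of methyltransferase cofactors, Pcna, the sliding clamp that holds Dnmt1 at the replication fork, fell in Erbb2 cells at 10 µM. Its ratios ran from -0.60 to -0.35 with a median of -0.50, all 8 below 0, while they were -0.15, -0.08, -0.21 and -0.29 at 5 µM and 0.17, 0.34, 0.02 and -0.07 in untransfected cells. The fall was 0.48 ± 0.09 (adjusted p 0.0154 from limma), and it missed the threshold without array 1 or without array 4 of that group (adjusted p 0.0562 and 0.0522). Pcna had -0.18 ± 0.13 at 5 µM and 0.11 ± 0.13 in untransfected cells. Its difference of Erbb2 minus untransfected cells at 10 µM was -0.60 ± 0.16 (adjusted p 0.129 from limma). That of 10 µM minus 5 µM was -0.30 ± 0.16 (adjusted p 0.998 from limma), so the fall is not shown to differ between the groups. Pcna was the 1 gene of 37 that passed in Erbb2 cells at 10 µM, beside 1.26% of all features, and 0 of 37 passed at 5 µM, beside 0.209%. Of the same list, the Dnmt1 deubiquitinase Usp7 had -0.22 ± 0.13, -0.28 ± 0.18 and -0.32 ± 0.18, and the Dnmt1 partner Dmap1 0.01 ± 0.19, 0.23 ± 0.27 and 0.16 ± 0.27.

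Among genes that take up and activate azacytidine, Nme2, a nucleoside diphosphate kinase that forms triphosphates, fell in untransfected cells. Its ratios ran from -0.42 to 0.42 in Erbb2 cells at 10 µM and from -0.05 to 0.29 at 5 µM, against -1.13, -1.11, -1.09 and -1.17 in untransfected cells. The fitted value was 0.04 ± 0.10 (10 µM) and 0.12 ± 0.15 (5 µM) in Erbb2 cells, and -1.13 ± 0.15 in untransfected cells (adjusted p 0.000626 from limma), where it was the 1 gene of 37 that passed, beside 2.73% of all features. Both list counts lie near those shares. The response of Erbb2 cells was 1.16 ± 0.18 above that of untransfected cells (adjusted p 0.00546), again the 1 of 37, beside 0.813% of all features. With the dyes of the untransfected arrays read the other way round, that difference was -1.09 and the value in untransfected cells 1.13. Nme1, a close paralog whose cDNA may share probe signal with it, had -0.72 at 10 µM, -1.88 ± 0.51 at 5 µM (adjusted p 0.289) and -0.25 in untransfected cells. In the same list Rrm2, the ribonucleotide reductase subunit, had 1.10 ± 0.52 in untransfected cells, Rrm1 0.45 ± 0.27 in Erbb2 cells at 10 µM, and the deoxycytidine kinase Dck 0.43 ± 0.46 at 5 µM.

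The list of the NuRD complex and other deacetylase corepressors, to which Mbd2 and Mbd3 bind, had 8 of 16 genes tested, and 0 passed in any group. In Erbb2 cells at 10 µM 4 of the 8 lay below 0, and at 5 µM 3. The zinc-finger subunit Gatad2b was highest in both, at 0.98 ± 0.34 at 10 µM and 0.44 ± 0.44 at 5 µM, and Hdac3 was lowest at 5 µM, at -0.52. In untransfected cells all 8 lay below 0, from -0.71 ± 0.41 for the histone-binding subunit Rbbp4 to -0.01 for the deacetylase Hdac3, with a median of -0.22 beside 0.03 over all features. Without array 3 of that group 5 of the 8 lay below 0, and 0 of the 8 with the dyes of that group read the other way round. Rbbp7, a relative of Rbbp4, had a fitted -0.27 ± 0.12 in Erbb2 cells at 10 µM, against -0.65 ± 0.17 in untransfected cells (adjusted p 0.0619 from limma), where its ratios were -0.22, -0.63, -1.04 and -0.74. In Erbb2 minus untransfected cells all 8 lay above 0, with a median of 0.42, but with the dyes of the untransfected arrays read the other way round 4 of the 8 did, with a median of -0.08.

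The other 4 lists had 0 genes past the threshold in any group. Of 2 further methyl-CpG readers, the zinc-finger protein gene Zbtb38 had 1.12 ± 0.52 at 10 µM and -0.11 at 5 µM, and Mbd6 had -0.45 ± 0.34 and 0.34 ± 0.48. In untransfected cells they had 0.12 and 0.11. Of 5 genes of histone H3 lysine 9 methylation and corepression, the heterochromatin proteins Cbx1 and Cbx5 had -0.50 and 0.51 at 10 µM and -0.38 and 0.40 at 5 µM. In untransfected cells the lowest was Ehmt1, the partner of Ehmt2, at -0.18, and the highest Suv39h2, an enzyme of the same mark, at 0.25. Of 5 genes of demethylation and base excision, the damage-response genes Gadd45g at 10 µM had -0.38 and Gadd45b in untransfected cells 0.51 ± 0.18 (adjusted p 0.210 from limma). The abasic endonuclease Apex1 had 0.34, -0.55 and -0.28 in the order of groups, and the polymerase Parp1 0.27 at 5 µM. Of 5 methyl donor genes, the serine hydroxymethyltransferase Shmt2 had -0.37 ± 0.14, 0.01 ± 0.19 and -0.55 ± 0.19, with an adjusted p of 0.213 in the last. Its relative Shmt1 had -0.39 at 10 µM and -0.24 at 5 µM, the methionine synthase reductase Mtrr 0.16 at 10 µM and 0.09 in untransfected cells, and Mat2b, a subunit of the enzyme that makes S-adenosylmethionine, 0.34 at 5 µM.

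**Figure D5:**
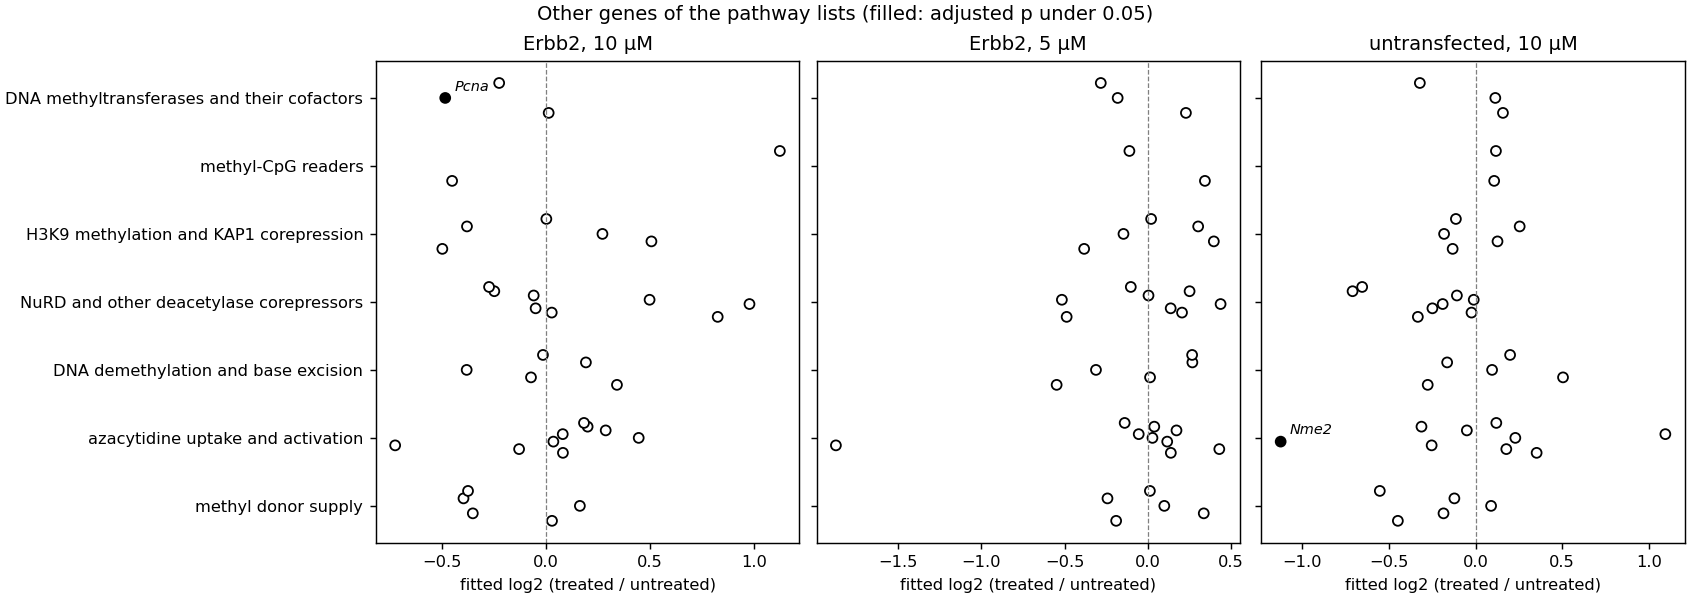
Fitted log2 ratio of treated over untreated cells (x axis, its own scale in each panel) of the 37 tested genes of the 7 pathway lists (y axis), in Erbb2 cells at 10 µM and 5 µM and in untransfected cells at 10 µM. Points are limma values, offset vertically for sight, and filled points passed an adjusted p under 0.05, which were Pcna at -0.48 and Nme2 at -1.13.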

How the data were processed

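The samples were grouped by cell line and dose from the labels' titles and source names, as Erbb2 cells at 10 µM, Erbb2 cells at 5 µM and untransfected cells at 10 µM. The deposited values are log2 ratios of the 2 channels, centred by the authors near 0, with medians of -0.03 to 0.05 per array. The log base was read from the values. On 12 of the 16 arrays the commonest value, taken as a ratio of 1, lay log2 of 100000 below the repeated top value. On the 4 arrays of untransfected cells the commonest values were -0.172, 0.125, -0.017 and 0.166. That distance would put a ratio of 1 there at -1.172, -0.875, -1.017 and -0.834, and the cause of the offset was not tested. The repeated top value, in 1755 of 325680 cells, was read as a placeholder and set to missing, beside 38737 empty cells. The sources used here do not give image analysis, background correction or normalization, and signal intensities were not used here. The label protocol speaks of organs and of a pool of animals, and was not used. Every per-sample column was used.

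Direction was taken only as likely, as the numerator dye was assumed and could not be tested with these values. Arrays of opposite dye correlated at r of 0.00388 and -0.00267 in Erbb2 cells (10 and 5 µM) and -0.0529 in untransfected cells. Arrays of the same dye correlated at 0.0257, 0.0516 and 0.109. These r bear on turning arrays of opposite dye against each other, and would be the same with Cy3 as the numerator. Probes needed 6 of 8 or 3 of 4 values in each group and 1 in each dye arrangement, which kept 14813 of 20355, and probes of a gene were averaged into 12420 features. Symbols came from the platform annotation. All 16 arrays entered 1 fit in limma 3.58.1 (R 4.3.3, with version 1.17.8 of data.table) with 3 group coefficients and a dye term, eBayes, two-sided tests and Benjamini-Hochberg adjustment over all features. The procedure was run on simulated data with known changes, where the noise of a feature had the same spread on every array. The real arrays differ in spread, so that run does not show how the calls behave on them. Promoters came from RefSeq (GRCm38.p6), where 8 of the 10 genes matched.

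The members and lists were chosen with earlier results of these data known. All members were named, with every list gene that passed and, where none did, the extremes of each list by group, and for Dnmt1 and each member past the threshold the 3 genes of highest Pearson's r over at least 14 arrays. Some values of named list genes in groups where they are not extremes, such as those of Rbbp7 and Nme1 in untransfected cells, and Rrm2 fall outside that rule and were picked with their values known. The alternatives were leaving the deposited ratios unturned, the dye of the untransfected arrays, own-group fits and leaving out the dye term. Further ones were filters, probe averaging, scaling, array weights, the placeholder and leaving out arrays.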

Additional observations from a re-analysis of the deposited data

Results flagged for a closer look

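Of 30 groups of arrays of the 10 genes, 3 held an array whose gap to the others was above Dixon's 95% critical value, and chance gives about 1 in 20. Dnmt3l in Erbb2 cells at 5 µM had 0.519 on array 1, against -0.500 to -0.485 on the other 3. Mbd2 in Erbb2 cells at 10 µM had -1.012 on array 8, against -0.127 to 0.264 on the other 7. Trim28 in Erbb2 cells at 10 µM had 4.064 on array 6, against -1.098 to 0.769 on the others.

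Dnmt1 was above 0 on every array of Erbb2 cells at 5 µM and below 0 on every array of untransfected cells at 10 µM, a difference of group means of 0.605. This difference was not tested, and the 2 groups differ in dose as well as in cell line. It was picked from all pairs of groups for each gene. Of the features with a value on every array, 17.6% at 5 µM and 25.3% in untransfected cells had one sign throughout. The share with opposite signs in the 2 groups was not counted. With the dyes of the untransfected arrays read the other way round, Dnmt1 had a fitted 0.11 there and lay above 0 in both groups.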

How the results depend on the processing

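Under 29 alternatives, 1730 values of the 10 genes, Pcna and Nme2 were set beside the original fit. Of these, 1707 stayed on the same side of the threshold, with an uncalled value counted as unmoved, 13 lost the call and 5 gained it. The other 5 changed sign and passed in the original fit, the alternative or both, so they need not be calls in both directions. With the deposited values taken as treated over untreated already, 2, 0 and 4 features passed in Erbb2 cells (10 and 5 µM) and in untransfected cells in place of 157, 26 and 339, 0 in Erbb2 minus untransfected cells in place of 101, and 0 members and 0 pathway genes anywhere. At an unadjusted p under 0.05 these were 1120, 519, 605 and 663. Nme2 in untransfected cells then had 0.0045 and Mbd2 -0.12. With the treated RNA of untransfected cells in the other dye, Mbd2 and Nme2 had 1.12 and 1.13 there, and -1.23 and -1.09 in Erbb2 minus untransfected cells, where 351 features, 1 member (Mbd2, adjusted p 0.0104 from limma) and 2 pathway genes passed. In fits of the arrays of a comparison alone, 22, 0 and 0 features passed in the 3 groups in limma (935, 875 and 1621 at an unadjusted p under 0.05) and 41 between lines, with 0 members in untransfected cells and 0 pathway genes in Erbb2 cells at 10 µM or in untransfected cells.

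With probes that had all 16 values, 247 and 73 features passed in Erbb2 cells at 10 and 5 µM and 189 between lines, with 1 member (Mbd2, adjusted p 0.0294) and 2 pathway genes between lines and 3 pathway genes in untransfected cells. Without the 3 widest arrays of Erbb2 cells at 10 µM, 57 features and 0 pathway genes passed there. At 5 µM, 16 features passed with each probe on its own, 5 with a filter of 2 values per group, 45 with arrays scaled to one spread (33 higher and 12 lower, in place of 22 and 4), and 118 with array weights, where Dnmt1 was the 1 member that passed (0.51, adjusted p 0.0475). Pathway genes passing in untransfected cells were 2 with each probe on its own, with scaled arrays and with array weights, and 2 between lines with each probe on its own.

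The numbers in the titles showed no pairing of the arrays. Residuals of the fit correlated at -0.107 to 0.133 over 10 same-number pairs, with a mean of -0.0002, against a mean of 0.012 for other numbers. Ratios of arrays of the same group and dye correlated at only 0.0257 to 0.109, so a pairing by the title numbers could go unseen. With those numbers as a replicate block on 11 arrays, 0, 2 and 2 features passed in the 3 groups in limma (495, 848 and 1174 at an unadjusted p under 0.05) and 0 between lines (632), with 0 members in untransfected cells (Mbd2 -0.98, adjusted p 0.243) and 0 pathway genes in Erbb2 cells at 10 µM, in untransfected cells or between lines.

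Leaving out each array in turn, features ranged from 103 to 145 in Erbb2 cells at 10 µM (103 without array 1 and without array 4), 5 to 24 at 5 µM, 213 to 372 in untransfected cells (213 without array 2 and 222 without array 1), 60 to 105 between lines (60, 63 and 67 without untransfected arrays 4, 2 and 1) and 0 to 0 between doses. Members ranged from 1 to 2 in untransfected cells, 0 to 1 between lines and 0 to 0 elsewhere, and Mbd2 passed in 16 of 16 such fits with adjusted p of 0.0024 to 0.0480. Pathway genes ranged from 0 to 2 in Erbb2 cells at 10 µM, 1 to 2 in untransfected cells, 1 to 1 between lines and 0 to 0 at 5 µM and between doses. The cause of these shifts was not tested. Signal over background is unknown, and precision is limited by the number of arrays.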
